A study of Homo sapiens with 6 samples.

Results

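The Frizzled, ROR, RYK and LRP genes encode the cell-surface receptors and co-receptors that receive Wnt proteins. They were taken as the rows of the count table whose gene symbol was FZD2, FZD4, FZD5, FZD6, FZD8, ROR1, ROR2, RYK, LRP5 or LRP6, and all 10 were found among the 14803 genes of the table. RNA was sequenced from MCF-12A, a non-tumorigenic human mammary epithelial cell line without estrogen receptor, that had received either octanoic acid (OA), a saturated fatty acid of medium chain length given as its sodium salt, or vehicle (phosphate-buffered saline) for 24 h. Each group had 3 libraries, and all cells grew in the same complete mammary epithelial medium. By their labels the groups differed only in OA, and all the libraries came from this 1 cell line. The vehicle libraries held 43049972 to 59935521 counts each and the OA libraries 47508208 to 49585010. Whether separate cultures gave the libraries of a group is not in the labels. P-values therefore cover the spread between these libraries, and that spread may be technical.

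Wnt proteins carry a lipid that fits into a groove of the extracellular cysteine-rich domain of a Frizzled receptor. When a Wnt bridges a Frizzled to LRP5 or LRP6, the tail of the LRP binds Axin, the complex that destroys beta-catenin is held at the membrane, and beta-catenin enters the nucleus. ROR1, ROR2 and RYK are receptors with a kinase-like domain that bind Wnts, chiefly WNT5A for the RORs. They act mainly in the branches that do not need beta-catenin, which shape cell polarity and movement. In the breast, Wnt signals are known for their part in branching of the ducts and in upkeep of basal cells.

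The question was how OA changed the transcripts of these receptors. ROR2 and FZD4 rose, 29.5-fold and 2.31-fold. FZD2, FZD8, ROR1, RYK, LRP5 and LRP6 fell, to between 0.582 and 0.806 of the vehicle level. FZD5 and FZD6 did not pass the threshold, a false discovery rate (FDR) of 0.01 by edgeR's quasi-likelihood test. In bulk RNA, fewer cells of a type and less RNA per cell cannot be told apart.

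OA moved most of the transcriptome, so these counts are read against it. Of 14785 genes tested, 43.3% passed as higher, against 2 of the 10 receptor genes, and 41.1% passed as lower, against 6 of the 10. With a change of over 2-fold also asked for, 22.3% of all genes were higher, against the same 2 receptor genes, and 12.3% were lower, against 0 receptor genes. The median log2 fold change was -0.32 over the receptor genes and 0.03 over all genes. The OA libraries lay wholly above the vehicle libraries for 2 receptor genes and wholly below for 7, and they overlapped for 1, FZD6. Over all genes these shares were 45.6%, 43.2% and 11.2%.

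Such values depend on the scaling of the libraries. Under the TMM scaling used here, 51.3% of called genes were higher in OA, against 65.4% when library totals alone were used and 62.6% with upper quartile scaling, and the median over all genes moved from 0.03 to 0.32 and 0.26. A scaling shifts nearly all genes by the same amount, so distances to that median are fixed by construction and say nothing of stability: the receptor median lay 0.36 below it on the log2 scale, and FZD6 lay 0.10 below it. The log2 fold change of FZD6 itself was -0.06 with TMM, 0.22 with library totals and 0.17 with upper quartile scaling. FZD5 changed sign with library totals only (0.04), and ROR1 and LRP6 were no longer called with library totals only or upper quartile scaling, and kept their calls with DESeq2-type size factors (adjusted p = 0.000607 and 2.06e-07 by edgeR). ROR2, FZD4, FZD2, FZD8, RYK and LRP5 kept their direction and their call.

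**Figure D1:**
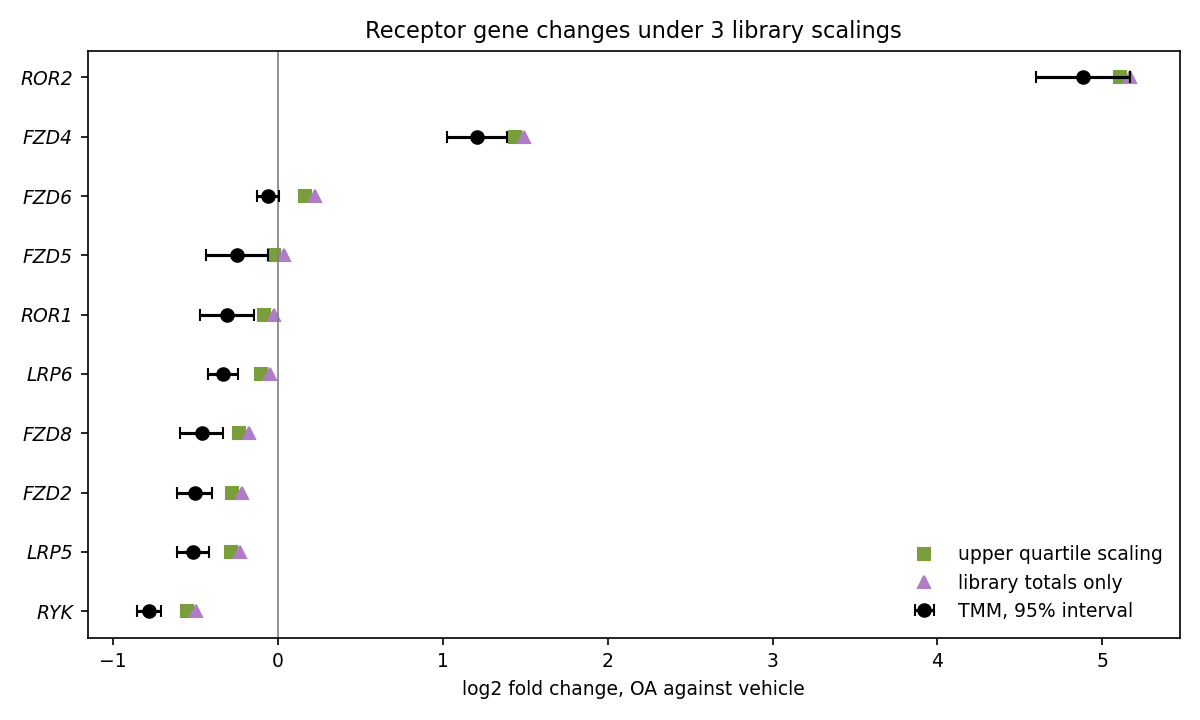
Log2 fold change of each receptor gene, OA against vehicle, with TMM scaling (circles, bars show the 95% interval), upper quartile scaling (squares) and library totals only (triangles). ROR2 and FZD4 lie right of 0 under all 3 scalings and RYK, LRP5, FZD2 and FZD8 left of 0, while FZD6 moves from -0.06 to 0.17 and 0.22 and FZD5 from -0.25 to -0.02 and 0.04.

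The cells carried the markers of the labelled tissue. All 9 mammary epithelial markers were counted, with a summed level of 8066 to 8316 CPM (counts relative to the TMM-scaled library total) in vehicle and 4631 to 4810 in OA, 3 of them higher and 6 lower. ESR1, the estrogen receptor gene, lay at 1.50 to 1.87 CPM in vehicle and 0.405 to 0.922 in OA. Of the other cell types, 5 of 8 fibroblast markers were counted (62.2 to 77.3 CPM, then 106.9 to 109.5; 4 higher), 3 of 5 endothelial (6.00 to 7.09, then 4.63 to 5.34), 1 of 5 leukocyte (2.35 to 3.04, then 4.96 to 5.95) and 5 of 5 neuronal (61.1 to 64.5, then 120.9 to 123.0; 4 higher). Hepatocyte markers set OA libraries 2 and 3 apart. The sum of the 12 of 18 counted was 47.9 to 52.4 CPM in vehicle and 42.1, 59.7 and 120.6 in OA libraries 1 to 3. By the test, 11 markers were higher and 1, CPS1, was lower. CPS1 made up most of the vehicle sum, at 38.2 to 42.7 CPM in vehicle against 28.6 to 29.4 in OA. ALB lay at 0.241, 2.42 and 1.53 CPM in vehicle libraries 1 to 3 and at 0.590, 10.5 and 46.6 CPM in OA libraries 1 to 3, so library 1 was the lowest in each group. No counted marker was at 0 in every library. With OA libraries 2 and 3 both left out, an alternative chosen after seeing the data in which the lone OA library is assumed to vary like the others, ROR1 lost its call (log2 fold change -0.28, adjusted p = 0.0209 by edgeR) and the results of the other 9 receptor genes kept their side of the threshold.

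The receptor genes differed widely in level. Per kilobase of transcript (RPKM, from the TMM-scaled CPM and the table's gene length), the mean vehicle levels ran from FZD6 (41.6) through RYK (38.7), LRP5 (14.1), FZD8 (11.4), FZD2 (6.63), LRP6 (3.42), ROR1 (1.58), FZD5 (1.06) and FZD4 (0.748) to ROR2 (0.0783). In that order no gene's 3 vehicle libraries overlapped those of its neighbours. FZD6 stood at the 87.4th percentile of all genes tested and RYK at the 86.4th, and ROR2 stood at the 5.80th. In OA the same order held for the upper 6 genes, and below them came ROR2 (2.35), FZD4 (1.73), ROR1 (1.27) and FZD5 (0.894), again with no overlap between neighbours. ROR2 had thus passed FZD4, FZD5 and ROR1.

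**Figure D2:**
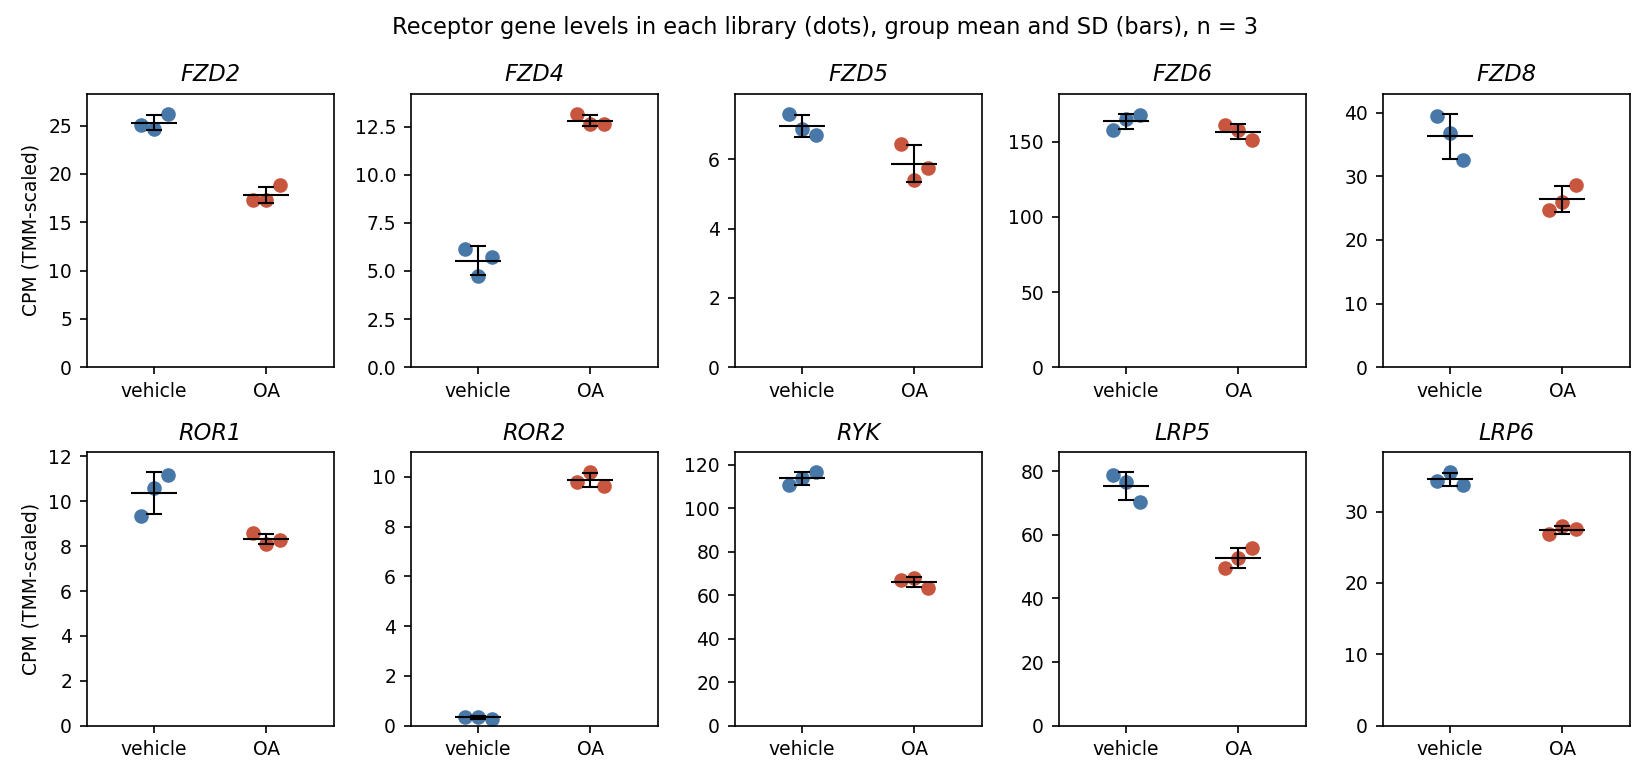
CPM of the 10 receptor genes in each library (dots; vehicle blue, OA red), with the group mean and SD (bars) of 3 libraries on axes that start at 0. ROR2 goes from 0.281 to 0.353 CPM in vehicle to 9.62 to 10.2 in OA, FZD4 from 4.72 to 6.17 to 12.6 to 13.2, and only FZD6 overlaps between the groups.

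The sequences just upstream of the genes are shown for the 3 kinase-like receptors, which moved apart, and for FZD4, the other gene that rose. Each is the 250 bases before the RefSeq transcription start on GRCh38.p14, read 5′ to 3′ on the gene's strand, from chr9:91950229-91950478 (minus strand), chr11:86955396-86955645 (minus strand), chr1:63773767-63774016 (plus strand) and chr3:134250860-134251109 (minus strand). Capitals mark GC boxes, the letters GGGCGG or CCGCCC on either strand with overlapping matches kept.
ROR2: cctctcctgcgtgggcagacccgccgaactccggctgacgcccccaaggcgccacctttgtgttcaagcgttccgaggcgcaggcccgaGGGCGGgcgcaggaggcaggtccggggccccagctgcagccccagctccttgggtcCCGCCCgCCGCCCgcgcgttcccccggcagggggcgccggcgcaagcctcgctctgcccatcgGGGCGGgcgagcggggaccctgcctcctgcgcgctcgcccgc
FZD4: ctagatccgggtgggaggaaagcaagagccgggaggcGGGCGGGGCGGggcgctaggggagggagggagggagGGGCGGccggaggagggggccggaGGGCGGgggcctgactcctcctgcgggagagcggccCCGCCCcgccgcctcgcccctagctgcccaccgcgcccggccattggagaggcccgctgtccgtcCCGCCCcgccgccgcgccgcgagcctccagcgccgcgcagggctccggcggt
ROR1: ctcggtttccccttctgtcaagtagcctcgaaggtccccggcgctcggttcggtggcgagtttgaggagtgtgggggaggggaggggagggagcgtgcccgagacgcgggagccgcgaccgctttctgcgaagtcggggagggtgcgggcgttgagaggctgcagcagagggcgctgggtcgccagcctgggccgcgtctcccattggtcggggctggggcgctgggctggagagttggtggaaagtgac
RYK: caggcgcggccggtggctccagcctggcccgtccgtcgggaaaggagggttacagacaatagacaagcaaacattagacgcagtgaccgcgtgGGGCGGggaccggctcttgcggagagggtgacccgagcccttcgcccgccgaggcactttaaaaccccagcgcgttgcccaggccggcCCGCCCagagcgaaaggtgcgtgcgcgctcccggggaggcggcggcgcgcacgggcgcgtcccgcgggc
The promoters of FZD4 and ROR2, which rose, held 6 and 4 GC boxes. Those of ROR1 and RYK, which fell, held 0 and 2. FZD5, which did not pass, also held 6, and FZD8 and LRP5, which fell, held 3 each, so the count of boxes did not separate the genes that rose from the others. RefSeq's table gave a promoter for 7 of the 10 genes, and 42.3% of its 27305 promoters held a GC box in this window. The 7 windows were 65.2% (FZD8) to 87.2% (LRP5) G or C, against a median of 58.0% over all promoters, and held 24 to 43 CpG dinucleotides, against a median of 11. A CCAAT box (CCAAT or ATTGG) stood in FZD4, FZD5, FZD8 and ROR1 (33.0% of all promoters), TATAAA or TTTATA only in FZD8 among the 7 (11.1%), CTTTG or CAAAG, the core of the TCF/LEF motif, only in ROR2 (42.2%), and CACGTG, an E-box, in none (6.49%). A match of letters is a description of the window and no evidence that a factor binds there.

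ROR2 is a receptor tyrosine kinase-like protein with a Frizzled-type cysteine-rich domain, a receptor for WNT5A that is needed for growth of the skeleton. Its gene lies on chromosome 9 (91722596 to 91950162, minus strand, hg38), and its 9 exon blocks span 4191 counted bases. Vehicle libraries 1 to 3 had 19, 16 and 11 counts of it, and OA libraries 1 to 3 had 532, 558 and 501. In CPM these were 0.352, 0.353 and 0.281 against 9.80, 10.2 and 9.62, so every OA library lay far above every vehicle library. The log2 fold change was 4.88 (SE 0.14), a 29.5-fold rise (95% interval 24.2 to 36.0, adjusted p = 1.22e-17 by edgeR). Only 1.62% of tested genes had a larger log2 fold change.

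The vehicle level of ROR2 was low, and the low genes kept in the table rose as a group. Genes were ranked per length by 1 vehicle library, and their change was measured from the remaining vehicle libraries. ROR2 stood in the lowest decile. There the median log2 fold change was 2.47 to 2.48 over the 3 choices of library, and 82.8% to 83.8% of genes rose over 2-fold. Only 18 of the table's 14803 genes failed the filter here, so the table may already have lacked genes low in both groups. Genes low in vehicle may then be in it through their OA counts, which would raise these decile values. This was not tested. The summed fibroblast and neuronal markers were higher in the OA libraries, as given with the markers, and their part in the ROR2 result was not tested.

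ROR1, the closest relative of ROR2, also binds WNT5A and is known mainly from embryonic tissue and from leukemia and carcinoma cells. It is on chromosome 1 (63774019 to 64181496, plus strand), with 9 exon blocks. It lay at 9.35, 10.6 and 11.2 CPM in vehicle and at 8.57, 8.12 and 8.28 CPM in OA. The groups did not overlap, but the gap between the lowest vehicle and the highest OA library was small. The fall was to 0.806 of vehicle (95% interval 0.720 to 0.902, log2 fold change -0.31, SE 0.08, adjusted p = 0.000981 by edgeR).

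The ROR pair thus changed places. The ROR2:ROR1 ratio per length was 0.0590, 0.0523 and 0.0394 in the vehicle libraries and 1.79, 1.97 and 1.82 in the OA libraries. A ratio within a library does not depend on the scaling. The difference in its log2 was 5.23, with SDs of 0.30 in vehicle and 0.07 in OA (exact two-sided permutation test over libraries, p = 0.1, the smallest that 3 against 3 libraries allow, and 0.1 after adjustment over the 4 receptor pairs compared).

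RYK carries a kinase domain without catalytic activity and an extracellular domain like that of Wnt inhibitory factor. The gene is on chromosome 3 (134157134 to 134250744, minus strand) with 15 exon blocks. RYK lay at 110.8, 113.9 and 116.5 CPM in vehicle and at 67.2, 67.9 and 63.3 CPM in OA, and the groups were well apart. It fell to 0.582 of vehicle (95% interval 0.553 to 0.612, log2 fold change -0.78, SE 0.03, adjusted p = 2.67e-14 by edgeR), the largest fall of the 10 genes. In the decile of genes by vehicle level that holds RYK and FZD6, the median log2 fold change was -0.54 to -0.52, and 18.1% of all genes had a lower value than RYK. A processed pseudogene, RYKP1, lies on chromosome 17, so reads shared with it could have been lost with the multi-mapped reads. Because RYK was so much more abundant, the summed level of ROR1, ROR2 and RYK went from 40.3 ± 1.1 RPKM to 26.1 ± 0.89 (SD, n = 3), which is 64.7% of vehicle, although ROR2 rose.

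**Figure D3:**
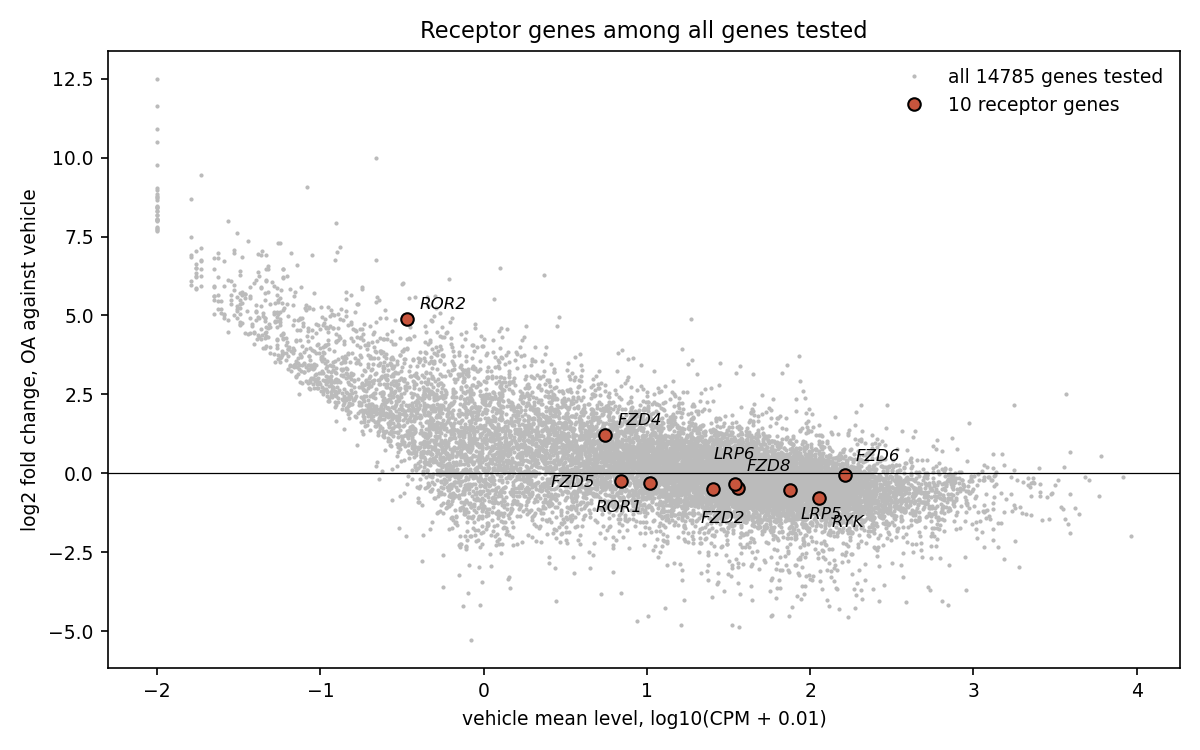
Log2 fold change (OA against vehicle, TMM scaling) against the mean vehicle level on a log10 axis, for all 14785 genes tested (grey) and the 10 receptor genes (red). The vehicle libraries enter both axes. ROR2 at 4.88 lies within the cloud of low genes that rose, FZD4 at 1.21 in its upper part, and the other 8 genes lie between -0.78 and -0.06.

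Among the Frizzled genes, FZD4 rose. FZD4 is the receptor for Norrin as well as for Wnts and is best known from the blood vessels of the retina. It lies on chromosome 11 (86945675 to 86955398, minus strand) with 2 exon blocks. It lay at 6.17, 4.72 and 5.71 CPM in vehicle and at 13.2, 12.6 and 12.6 CPM in OA. The lowest OA library was over the highest vehicle library by a wide margin. The rise was 2.31-fold (95% interval 2.04 to 2.62, log2 fold change 1.21, SE 0.09, adjusted p = 5.25e-11 by edgeR), and 19.4% of tested genes had a larger value. In its decile of genes by vehicle level, which also holds FZD5 and ROR1, the median log2 fold change was 0.65 to 0.68 and 36.7% rose over 2-fold. PECAM1, KDR and TEK, the 3 endothelial markers counted, summed to a lower level in OA, with 1 of them higher and 1 lower by the test, and their part in the FZD4 result was not tested.

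The count of FZD4 has a limit of its own. Over 1399 bases, 18.9% of its counted length, its exons overlap those of PRSS23, a serine protease gene on the opposite strand, and no source used here gives the strand setting of the count. PRSS23 went the other way, from 31.1 ± 1.9 to 16.1 ± 1.1 CPM (SD, n = 3; log2 fold change -0.95, SE 0.06, adjusted p = 3.41e-12 by edgeR).

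FZD2 is a Frizzled that works both through beta-catenin and, with the RORs, through WNT5A. It is on chromosome 17 (44557444 to 44561262, plus strand) in 1 exon block of 3819 bases. It lay at 25.0, 24.7 and 26.2 CPM in vehicle and at 17.3, 17.3 and 18.8 CPM in OA, without overlap. It fell to 0.704 of vehicle (95% interval 0.654 to 0.759, log2 fold change -0.51, SE 0.05, adjusted p = 1.39e-08 by edgeR). In its decile of genes by vehicle level the median log2 fold change was -0.08 to -0.07.

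FZD8, a receptor in the beta-catenin branch, is likewise in 1 exon block, on chromosome 10 (35638249 to 35641434, minus strand). It lay at 39.5, 36.9 and 32.5 CPM in vehicle and at 24.6, 26.0 and 28.6 CPM in OA. Its libraries spread more than those of FZD2, but the highest OA library stayed under the lowest vehicle library. It fell to 0.725 of vehicle (95% interval 0.662 to 0.794, log2 fold change -0.46, SE 0.06, adjusted p = 8.58e-07 by edgeR). The FZD8 exon shares 318 bases with ENSG00000287528, a noncoding RNA gene on the opposite strand, and 81 with MIR4683 on the same strand. Neither was among the genes counted, and their part in the FZD8 count was not tested.

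FZD5, known for its part in the intestine and the eye, is on chromosome 2 (207762586 to 207769419, minus strand). It lay at 7.32, 6.88 and 6.71 CPM in vehicle and at 6.45, 5.40 and 5.76 CPM in OA. The groups did not overlap, but the difference did not pass: the fold was 0.841 (95% interval 0.739 to 0.957, adjusted p = 0.0135 by edgeR).

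FZD6 acts in planar cell polarity, as in the orientation of hairs in the mouse, and was the most abundant of the 10 genes per length in both groups. It is on chromosome 8 (103298433 to 103332866, plus strand) with 8 exon blocks. It lay at 157.9, 165.2 and 167.7 CPM in vehicle and at 160.9, 158.0 and 151.3 CPM in OA, and the groups overlapped. The fold was 0.959 (95% interval 0.915 to 1.005, adjusted p = 0.0839 by edgeR), and library totals only or upper quartile scaling turned its sign. Its exons share 138 bases (3.51% of its length) with LOC105369147 on the opposite strand.

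The mix of Frizzled transcripts moved with these genes. The table held 10 Frizzled genes, and their shares in the summed Frizzled level per length do not depend on the scaling. FZD6 made up 47.4%, 50.3% and 50.9% of the sum in vehicle and 56.5%, 56.6% and 54.5% in OA, a mean gain of 6.30 percentage points without overlap. A share also grows when the rest of the sum falls, and the level of FZD6 itself did not pass (fold 0.959). FZD4 went from 0.891% ± 0.11 to 2.43% ± 0.027 (SD, n = 3) and FZD2 from 7.90% ± 0.27 to 6.54% ± 0.38, also without overlap. FZD8 went from 13.6% ± 1.3 to 11.6% ± 1.0, with OA library 3 (12.7%) above vehicle library 3 (12.2%). FZD5 had 1.26% in vehicle and 1.25% in OA, with the groups overlapping.

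The largest loss of share was outside the 10 genes. FZD1 went from 17.1% ± 0.66 to 10.2% ± 0.15 of the Frizzled sum, a log2 fold change of -0.99 (SE 0.04). FZD7 fell as well (log2 fold change -0.36, SE 0.05), while FZD3 (0.72, SE 0.06), FZD9 (1.47, SE 0.18) and FZD10 rose. FZD10 counts were 4, 2 and 6 in the vehicle libraries and 201, 188 and 169 with OA (log2 fold change 5.28, SE 0.26), and it ended at 1.48% of the sum. Its fold rests on very few vehicle counts. FZD10 may be in the table through its OA counts, which was not tested. The summed level of the 5 Frizzled genes among the 10 receptors was 90.3% of vehicle in OA, and that of all 10 Frizzled genes was 85.0%, from 83.9 ± 0.65 to 71.3 ± 0.93 RPKM (SD, n = 3).

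**Figure D4:**
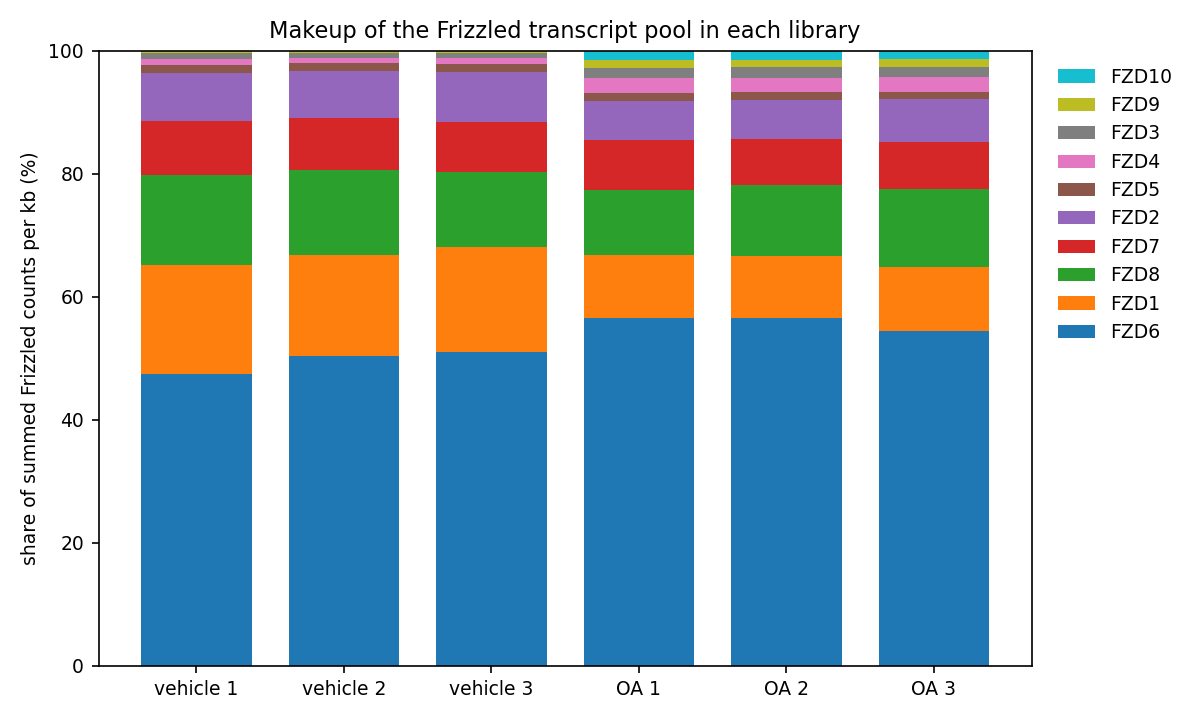
Share of each Frizzled gene (%) in the summed counts per kilobase of the 10 Frizzled genes, for each of the 6 libraries. FZD6 takes 47.4% to 50.9% in vehicle and 54.5% to 56.6% in OA, and FZD1 narrows from a mean of 17.1% to 10.2%. FZD4 and FZD10 widen from 0.891% to 2.43% and from 0.033% to 1.48%. The vehicle share of FZD10 rests on very few counts.

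Within a library, the ratio of FZD4 to FZD6 per length was 0.0208, 0.0152 and 0.0181 in vehicle and 0.0436, 0.0426 and 0.0444 in OA, a difference in log2 of 1.28. FZD2 to FZD6 went the other way, from 0.163, 0.154 and 0.161 to 0.111, 0.113 and 0.128 (difference -0.45). Neither ratio overlapped between the groups, and the exact two-sided permutation test gave p = 0.1 for each, the smallest possible, and 0.1 after adjustment.

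Both LRP co-receptors fell, LRP6 with a call that was kept with DESeq2-type size factors but not with upper quartile scaling or library totals only. LRP5 is known for its control of bone mass and lies on chromosome 11 (68312609 to 68449275, plus strand) with 24 exon blocks. It lay at 78.7, 76.7 and 70.4 CPM in vehicle and at 49.7, 52.6 and 55.9 CPM in OA, with a clear gap between the groups. It fell to 0.699 of vehicle (95% interval 0.655 to 0.747, log2 fold change -0.52, SE 0.05, adjusted p = 1.69e-09 by edgeR).

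LRP6, a co-receptor that the mouse embryo needs for beta-catenin signalling, lies on chromosome 12 (12116026 to 12266877, minus strand) with 23 exon blocks. It lay at 34.4, 35.5 and 33.7 CPM in vehicle and at 26.8, 28.0 and 27.5 CPM in OA, again without overlap. It fell to 0.794 of vehicle (95% interval 0.746 to 0.845, log2 fold change -0.33, SE 0.04, adjusted p = 4.51e-07 by edgeR). The median of its decile of genes by vehicle level was 0.35 to 0.36, and that of the decile that holds LRP5 and FZD8 was -0.18 to -0.16.

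The LRP5:LRP6 ratio was lower in OA. Per length, LRP5 stood at 4.31, 4.07 and 3.93 times LRP6 in the vehicle libraries and at 3.49, 3.55 and 3.83 times in OA (difference in log2 -0.18, exact two-sided permutation test p = 0.1, the smallest possible, and 0.1 after adjustment). The gap between vehicle library 3 and OA library 3 was small. Their summed level went from 17.5 ± 0.87 to 12.6 ± 0.62 RPKM (SD, n = 3), 71.9% of vehicle, and that of all 10 receptor genes from 119.2 ± 0.83 to 94.1 ± 0.78 RPKM, 78.9% of vehicle. Of the related receptors, LRP4, which binds agrin at the nerve-muscle junction, rose (log2 fold change 0.89, SE 0.07, adjusted p = 2.11e-10 by edgeR). PTK7, a kinase-dead receptor of planar cell polarity, did not pass (-0.02, SE 0.03, adjusted p = 0.543). MUSK was not analysed here.

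Around the receptors, the other Wnt pathway genes moved in both directions. The pathway lists named 131 other genes, of which 102 were tested. Of these 102 genes, 55 rose, 26 fell and 21 did not pass, against 43.3% higher and 41.1% lower over all genes. Their median log2 fold change was 0.25. With library totals only, 72 were called higher and 16 lower, and with upper quartile scaling 68 higher and 19 lower.

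Of 26 listed genes of Wnt ligands, R-spondins and their secretion, 15 were tested. Of these, 10 rose, 0 fell and 5 did not pass, against 43.3% higher and 41.1% lower over all genes. The median log2 fold change of the 15 was 1.61. Some of the 10 had few counts in vehicle libraries 1 to 3, such as WNT3A (4, 2 and 4) and WNT4 (2, 8 and 1). They may be in the table through their OA counts, which would raise the count of rises and the median of this list. This was not tested. WNT9A (2.09, SE 0.07), WNT7B (2.15, SE 0.08) and WNT11 (2.29, SE 0.14), which are secreted ligands, rose over 2-fold. PORCN, the enzyme that attaches the lipid to Wnts, rose by 0.57 (SE 0.05) and was the highest of this list per length in OA (12.6 RPKM in vehicle, 18.8 in OA). WNT5A, the ligand of the RORs, named here after its value was seen, did not pass: its mean was 6.03 RPKM in vehicle and 6.21 in OA (log2 fold change 0.05).

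Genes for turnover of the receptors at the membrane and for the R-spondin receptors were 8 higher and 4 lower of 13, median 0.24. Over all genes, 43.3% were higher and 41.1% lower. CAV1, which coats caveolae through which LRP6 can be taken up, fell by 2.96 on the log2 scale (SE 0.05), from 516.8 to 66.4 RPKM. LGR4, an R-spondin receptor, fell by 0.92 (SE 0.04), and SDC4, a heparan sulfate proteoglycan, rose by 0.47 (SE 0.03). Of 5 genes for maturation of the receptors or cleavage of Wnts, 1 rose and 3 fell, median -0.20. SHISA2, which holds Frizzleds in the endoplasmic reticulum, rose by 2.05 (SE 0.10), TRABD2A, a protease that cleaves Wnts, fell by 0.43 (SE 0.06), and MESD, the chaperone of LRP5 and LRP6, fell by 0.25 (SE 0.04).

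Of 14 listed secreted antagonists, only 5 were tested, with 3 higher and 2 lower, median 1.19. The shares over all genes were 43.3% higher and 41.1% lower. SFRP1, which binds Wnts away from Frizzleds, fell by 1.56 (SE 0.04), and DKK1, which binds LRP5 and LRP6, fell by 0.92 (SE 0.03). DRAXIN, which binds LRP6, was counted 3, 1 and 0 times in the vehicle libraries and 260, 340 and 226 times with OA, so its fold rests on very few vehicle counts.

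Inside the cell, Dishevelled and the destruction complex were 10 higher and 5 lower of 19, median 0.20. For this and the following lists, the shares over all genes were 43.3% higher and 41.1% lower. CTNNB1, the gene of beta-catenin, fell by 1.09 (SE 0.03), CSNK1G2, a kinase of the LRP6 tail, by 0.75 (SE 0.03), and GSK3A, a kinase of beta-catenin, by 0.63 (SE 0.04). CSNK1A1, the most abundant of this list per length in OA, rose by 0.26 (SE 0.03). TCF factors and usual beta-catenin target genes were 7 higher and 4 lower of 13, median 0.96. CCND1, the cell cycle gene of cyclin D1, fell by 1.19 (SE 0.03) and MYC, a growth regulator, by 0.72 (SE 0.04), and DKK1 stands in this list too. These named genes all fell, while 6 genes of the list were over 2-fold higher and 1 over 2-fold lower. Over all genes, 22.3% were over 2-fold higher and 12.3% over 2-fold lower. Genes of planar cell polarity and Wnt/calcium signalling were 14 higher and 8 lower of 30, median 0.10. VANGL2, a membrane core protein of polarity, rose by 1.53 (SE 0.04), and the small GTPases CDC42 and RHOA fell by 1.09 (SE 0.03) and 0.82 (SE 0.03). In each list all the genes named with a change passed the threshold by edgeR with adjusted p-values of 5.72e-06 or less.

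**Figure D5:**
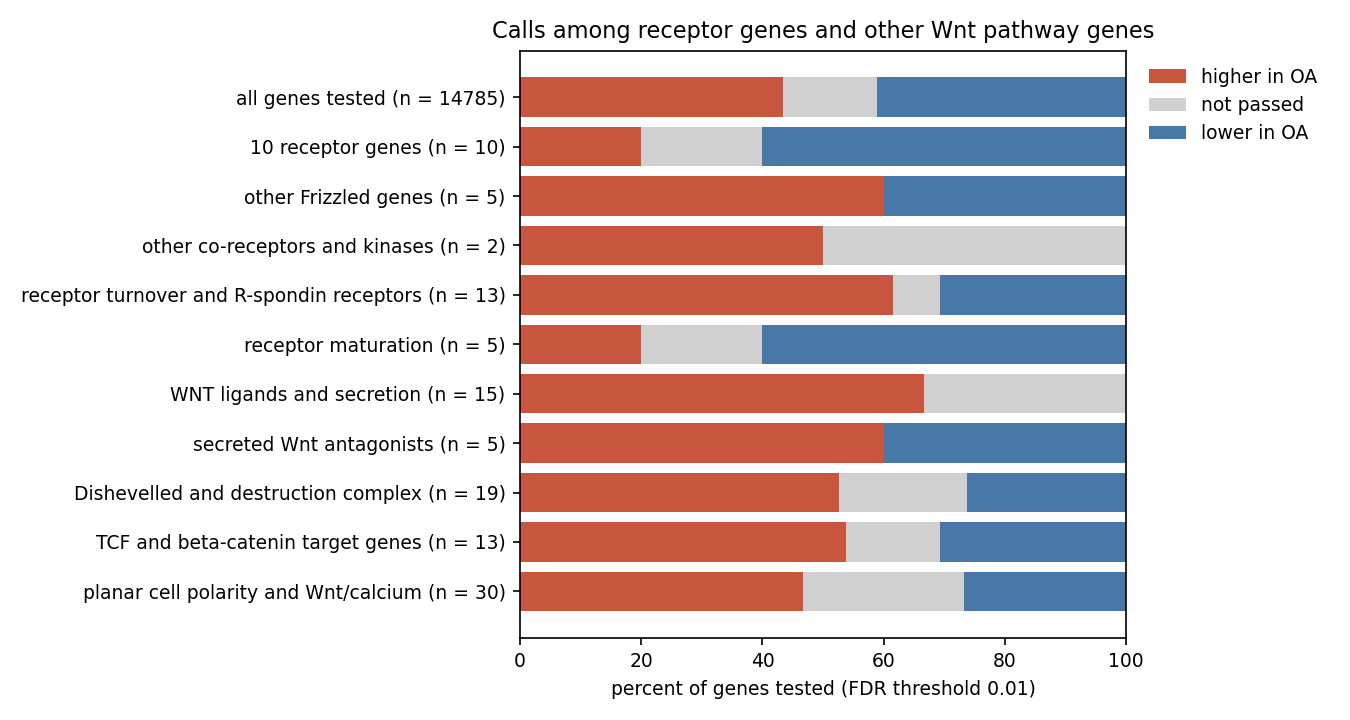
Percent of the tested genes of each list that were higher in OA (red), lower (blue) or did not pass (grey) at an FDR of 0.01, for all genes, the 10 receptor genes and the other Wnt pathway lists without them. The receptor genes show 2 higher and 6 lower of 10, and all genes show 43.3% higher and 41.1% lower. The WNT ligand and secretion list shows 10 higher and 0 lower of 15. Some of its genes may be in the table through their OA counts, which was not tested.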

How the data were processed

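RNA of 6 MCF-12A libraries, 3 per group by the sample labels, was compared. Reads had been aligned by the authors with STAR 2.5 (hg38), multi-mapped reads dropped, and genes counted with featureCounts 1.5.1. The deposited table holds these raw counts, unnormalized, with gene lengths. The sources differ on read length and layout, and no dose was used here. Counts were tested in R 4.3.3 with edgeR 4.0.16 (TMM scaling, filterByExpr, which removed 18 of 14803 genes, two-sided quasi-likelihood test, no covariate, Benjamini-Hochberg adjustment over all genes, FDR 0.01). The SE was the log2 fold change divided by the square root of F. The median SE was 0.05. The trend by level used CPM + 0.05. The receptor genes and the lists were chosen with earlier results of these data known. Named genes were all 10 receptors, the other Frizzled genes and co-receptors, and, per list, the 3 genes with the smallest p past the threshold at 1 CPM or more, plus the gene with the highest level per length. No gene was named for a like pattern, as 2 groups give 1 contrast. Promoters were RefSeq's. Alternatives were other scalings, filters and tests (the study's edgeR likelihood ratio test, DESeq2 1.42.0, limma-voom with limma 3.58.1), a replicate block, each library left out, the most abundant genes left out, and an FDR of 0.05. Scripts were tested on simulated data.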

Additional observations from a re-analysis of the deposited data

How the results depend on the processing

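ROR2 and FZD4 were higher, and FZD2, FZD8, RYK and LRP5 lower, past the threshold under all alternatives run. FZD6 turned to 0.22 on the log2 scale with library totals only (adjusted p = 3.52e-06 by edgeR) and 0.17 with upper quartile scaling (adjusted p = 8.87e-05). Under these 2 scalings LRP6 (-0.05 and -0.11) and ROR1 (-0.03 and -0.08) lost their calls, the receptor median was -0.036 and -0.095, and with totals only 16 other Wnt genes were lower instead of 26. With a filter of 1 CPM in 3 libraries the median was -0.30, and without each library in turn it ran from -0.36 (without vehicle replicate 1) to -0.30. FZD5 passed at an FDR of 0.05, with DESeq2-type size factors (adjusted p = 0.00858), with edgeR's likelihood ratio test (0.00917) and without OA replicate 1 (0.00293). Its Frizzled share, lower by 0.01 percentage points, ran from -0.063 to 0.036 without each library in turn. The causes were not tested. No pairing by replicate number was seen. The correlations of same-numbered libraries were 0.001, 0.018 and -0.079, and not every library correlated best with its own number. With 3 libraries per group, these values cannot exclude a pairing. With a replicate block ROR2 rose by 4.89, and 2 receptor genes were higher and 6 lower, as without it. Low counts limit ROR2 in vehicle (11 to 19 counts).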
